A study of Penicillium oxalicum with 6 samples.

Results

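The genes described here are 41 *Penicillium oxalicum* genes annotated as Zn2Cys6 transcription factors. They were selected on the transcription factor column of the study's own list of genes differentially expressed between strain GXUR001 and strain TE4-10, so the members were chosen by their difference between the same libraries that are described below. The portion of that list at hand holds 1998 genes, whose identifiers run from POX_a to POX_d, and 105 of these carry a transcription factor class. All 41 were found among the 9822 annotated genes of the deposited tables, with 8 on POX_a, 12 on POX_b, 10 on POX_c and 11 on POX_d. Zn2Cys6 genes outside that portion were not analysed here.

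Zn2Cys6 proteins, also called zinc binuclear cluster proteins, are a class of transcription factors found almost only in fungi. A cluster of cysteines holds a pair of zinc ions and folds into the DNA-binding domain, which recognises CGG triplets, often as a dimer. The class is known from Gal4 of *Saccharomyces cerevisiae*, the activator of the galactose genes, and in filamentous fungi it includes AmyR, the activator of starch-degrading enzyme genes in *Aspergillus*, and XlnR, an activator of xylanase and cellulase genes. Some members of the class lie inside gene clusters and act on the genes beside them, such as AflR of the aflatoxin cluster in *Aspergillus*.

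TE4-10 was the control strain. It is labelled WT but is itself a mutant, obtained by ethyl methanesulfonate and cobalt γ-ray mutagenesis of A2-13, which descends from a strain with *PoxKu70* deleted and the glucoamylase gene *PoxGA15A* overexpressed from a cellulose-inducible promoter. GXUR001 was made from TE4-10 by deleting the repressor gene *PoxCxrC* and overexpressing *PoxAmyR* (POX_f08097) at once, so the effects of these changes cannot be told apart, and GXUR001 is 1 engineered strain. Mycelia of both strains were pre-grown in glucose and then induced for 24 h, in a medium that the labels give as raw starch alone and the methods as wheat bran plus Avicel. The libraries analysed were replicates 1, 2 and 3 of GXUR001 (n = 3) and replicates 1 and 3 of TE4-10 (n = 2), whose replicate 2 was not analysed here. The methods call the replicates biological, and the labels do not say how they were obtained. In these bulk mycelial samples, fewer cells expressing a gene and less RNA of it per cell cannot be told apart.

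The deposited unit was FPKM, a fragment number set relative to the length of the gene and the size of the library. The tables hold no read numbers, but by the steps of the low values GXUR001 libraries were 1.05 to 1.09 times as deep as those of TE4-10. Median-ratio scaling, which brings the typical gene to 1 level in all libraries, used divisors of 0.875 to 0.991 in GXUR001 and 1.10 to 1.14 in TE4-10 and moved the median log2 fold change of the 9636 genes tested from -0.26 to 0.00. Levels below are these rescaled FPKM values, and fold changes are log2 differences of GXUR001 minus TE4-10 on log2(FPKM + 1), a scale that understates the change of low genes. Correlations of log2(FPKM + 1) over all rows, which describe the libraries only, were 0.978 to 0.984 among the GXUR001 libraries and 0.970 between the TE4-10 libraries. TE4-10 replicate 3 was about as close to GXUR001 (0.968) as to its own replicate, and TE4-10 replicate 1 was farther from GXUR001 (0.951 to 0.953). As a check of the labels, the overexpressed gene *PoxAmyR* stood at 54.8 and 60.6 in TE4-10 and at 104, 91.7 and 74.9 in GXUR001, a log2 fold change of 0.62 ± 0.16 (SE). The actin gene POX_c04656 had a log2 fold change of -0.08 ± 0.14 (SE), and its deposited FPKM values were lower in every GXUR001 library (1650 to 1751) than in TE4-10 (2038 and 2305).

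The list at hand gives a function other than hypothetical protein for 1 member only, so for the rest no role beyond the class can be stated. That member is POX_c04728, entered as a Zn2Cys6 transcriptional regulatory protein. POX_a00794 is also entered under AA5, the family of copper radical oxidases such as galactose oxidase and glyoxal oxidase.

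The members were mostly expressed at a moderate level. Their median was 18.6 FPKM over the 5 libraries, against 26.4 FPKM for all annotated genes, and 17 of the 41 lay above that value. The middle part of the members, between their quartiles, ran from 11.0 to 38.8 FPKM. Below 10 FPKM were 10 members, 26 lay between 10 and 50, 2 between 50 and 100, and 3 above 100 FPKM. The level in each library is plotted for all members.

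**Figure D1:**
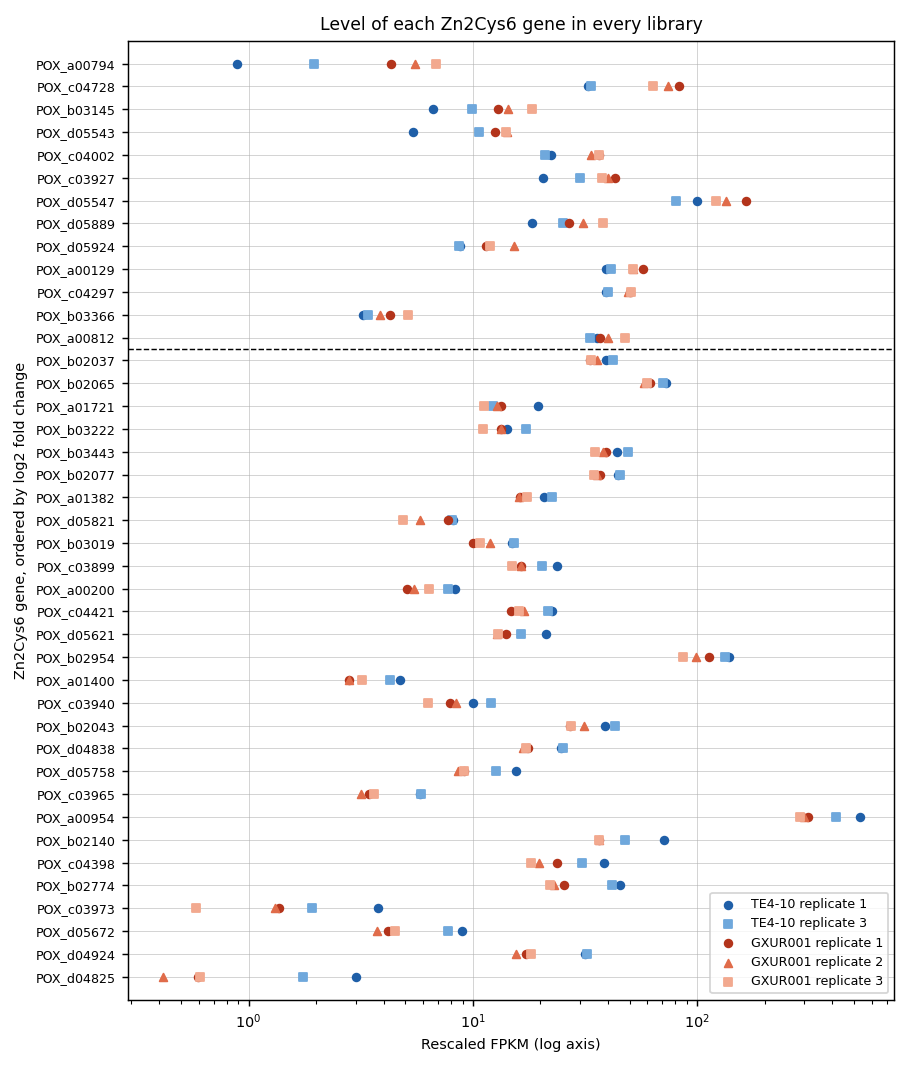
Rescaled FPKM (log axis) of the 41 Zn2Cys6 genes in each library of TE4-10 (blue) and GXUR001 (red), ordered by log2 fold change. Above the dashed line are the 13 genes with a higher mean in GXUR001 and below it the 28 with a lower mean. POX_a00954 is the highest in every library, and only POX_a01721 has overlapping strains.

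POX_a00954 was the most abundant member, above 94.7% of annotated genes. It stood at 531 and 417 FPKM in TE4-10 and at 313, 300 and 289 FPKM in GXUR001. All GXUR001 values lay below both TE4-10 values, and the log2 fold change was -0.65 ± 0.13 (SE). The gene made up 32.0% and 27.7% of the summed FPKM of all members in TE4-10 and 21.9% to 22.1% in GXUR001. That sum came to 1659 and 1507 in the TE4-10 libraries against 1431, 1356 and 1317 in the GXUR001 libraries, without overlap. Without POX_a00954 it came to 1128 and 1090 against 1118, 1057 and 1029, and the strains overlapped, so POX_a00954 alone carried most of the difference in the sum.

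Next in level was POX_d05547, which went the other way. It stood at 99.7 and 80.8 FPKM in TE4-10 and at 165, 134 and 122 FPKM in GXUR001, a log2 fold change of 0.63 ± 0.17 (SE). Its lowest GXUR001 value was above both TE4-10 values. POX_b02954, at 139 and 134 FPKM in TE4-10, was lower in GXUR001 at 113, 98.7 and 86.8 FPKM (-0.46 ± 0.13, SE). These genes kept the top 3 places in both strains, in the order POX_a00954, POX_b02954 and POX_d05547 in TE4-10 and with the last 2 exchanged in GXUR001. In GXUR001 the values of POX_b02954 (86.8 to 113) did not overlap those of POX_d05547 (122 to 165).

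The other members among the 10 highest included 4 whose strains differed by little but without overlap. POX_b02065 stood at 72.5 and 70.3 FPKM in TE4-10 and at 61.8, 57.7 and 60.0 FPKM in GXUR001 (-0.25 ± 0.08, SE). POX_b03443 stood at 44.1 and 49.4 FPKM in TE4-10 and at 39.4, 38.0 and 35.1 FPKM in GXUR001 (-0.31 ± 0.10, SE). Both were lower in every GXUR001 library. POX_a00129 stood at 39.5 and 41.4 FPKM in TE4-10 and at 57.7, 51.6 and 52.1 FPKM in GXUR001 (0.40 ± 0.09, SE), and POX_c04297 at 39.3 and 40.0 against 50.4, 49.1 and 50.9 FPKM (0.33 ± 0.08, SE). Both were higher in all GXUR001 libraries after rescaling. As deposited, the values of POX_c04297 overlapped (45.0 and 43.9 against 44.1, 45.0 and 50.5 FPKM), so its separation rests on the rescaling.

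Of the 41 members, 28 (68.3%) were lower in GXUR001 and 13 were higher, against 49.9% lower among all genes tested and 52.7% among the annotated genes tested. Their median log2 fold change was -0.37, beside 0.00 over all genes tested, with a range of -1.11 to 1.46 and a median SE of 0.14. Limma with Benjamini-Hochberg adjustment over all genes put 10 members under an adjusted p of 0.05 as lower and 5 as higher, 15 of 41. Over all genes tested, the same call was made for 17.8%, with 8.08% lower and 9.74% higher. The strains did not overlap in 27 members that were lower and in 13 that were higher, beside 26.5% and 26.7% of all genes. Because the members were chosen by this contrast, nothing is read from these counts. The choice is visible in the plot of log2 fold changes, where the members leave a gap around 0. The smallest absolute log2 fold change of a member was 0.25 (POX_b02037), and 43.4% of all genes tested had a smaller one. In absolute log2 fold change, 19 members were under 0.5 and 3 were at or above 1.

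**Figure D2:**
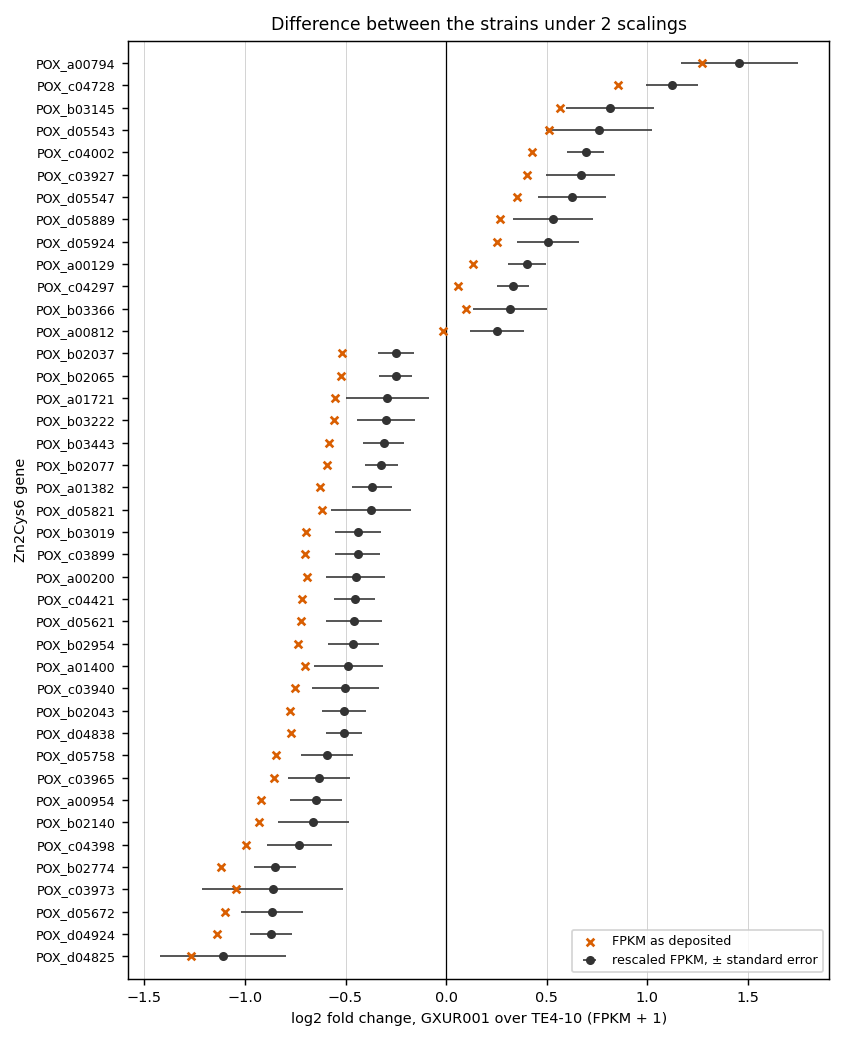
Log2 fold change (GXUR001 over TE4-10) of each Zn2Cys6 gene from rescaled FPKM (points, with bars of ± 1 standard error from limma) and from FPKM as deposited (crosses). All crosses lie to the left of their points, and the cross of POX_a00812 falls at -0.01, on the other side of 0 from its point.

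The scaling of the libraries moved the calls more than the directions. With FPKM as deposited, 29 members were lower and 12 higher, the median log2 fold change was -0.63 beside -0.26 for all genes tested, and limma put 24 members as lower and 3 as higher. Over all genes tested the same fit put 2198 as lower and 463 as higher. With upper quartile scaling 16 members were put as lower and 3 as higher, and 1840 of all genes were called. Relative to the median of all genes tested, the median of the members was therefore about as low under either scale. POX_a00812 (35.7 and 33.4 FPKM against 36.8, 40.1 and 48.0 FPKM rescaled, a log2 fold change of 0.25) was the only member whose sign turned with FPKM as deposited (-0.01). As deposited, 6 of the 13 higher members had overlapping strains, and over all genes tested the number higher without overlap went from 2572 to 1218.

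Among the members that were higher in GXUR001, the largest difference was at POX_a00794, the gene also entered under AA5. It stood at 0.891 and 1.96 FPKM in TE4-10 and at 4.31, 5.55 and 6.86 FPKM in GXUR001. By its mean it was the lowest of all members in TE4-10, though not in replicate 3. Every GXUR001 value was above both TE4-10 values. The log2 fold change was 1.46 ± 0.29 (SE), and the means were 1.42 ± 0.753 (SD, n = 2) and 5.57 ± 1.28 (SD, n = 3) FPKM. POX_c04728, the entry with a named function, stood at 32.6 and 33.7 FPKM in TE4-10 and at 83.4, 74.3 and 63.9 FPKM in GXUR001. It was the largest difference among well expressed members, with a log2 fold change of 1.12 ± 0.13 (SE), and it went from place 15 among the members in TE4-10 to place 4 in GXUR001. Its TE4-10 libraries nearly coincided, whereas its GXUR001 libraries spread over 63.9 to 83.4 FPKM.

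POX_c04002 had the smallest standard error among the 6 largest differences upward. It stood at 22.3 and 21.0 FPKM in TE4-10 and at 36.6, 33.8 and 36.5 FPKM in GXUR001, a log2 fold change of 0.69 ± 0.09 (SE). The other 3 of the 6 largest differences upward were uneven within TE4-10, with replicate 3 between replicate 1 and GXUR001. POX_b03145 stood at 6.61 and 9.96 FPKM in TE4-10 and at 13.0, 14.4 and 18.3 FPKM in GXUR001 (0.82 ± 0.22, SE). POX_d05543 stood at 5.41 and 10.7 FPKM in TE4-10 and at 12.6, 14.2 and 14.1 FPKM in GXUR001 (0.76 ± 0.26, SE). POX_c03927 stood at 20.6 and 30.1 FPKM in TE4-10 and at 42.9, 40.1 and 37.7 FPKM in GXUR001 (0.67 ± 0.17, SE). In each of these 3 genes the strains were separate, but for POX_d05543 they overlapped as deposited (6.19 and 11.7 FPKM against a lowest GXUR001 value of 11.0 FPKM). None of the 3 was called (adjusted p by limma 0.0589, 0.104 and 0.0531, in this order).

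Among the members that were lower in GXUR001, the largest log2 fold change was at a gene of very low level, POX_d04825. It stood at 3.00 and 1.75 FPKM in TE4-10 and at 0.594, 0.415 and 0.605 FPKM in GXUR001 (-1.11 ± 0.31, SE). By its mean it was the lowest of all members in GXUR001, though not in replicate 3. POX_c03973 was of the same kind, at 3.77 and 1.93 FPKM in TE4-10 and 1.37, 1.31 and 0.585 FPKM in GXUR001 (-0.86 ± 0.35, SE). In both genes TE4-10 replicate 1 was well above replicate 3, and their standard errors were the largest of the members. Neither was called (adjusted p by limma 0.0646 for POX_d04825 and 0.147 for POX_c03973).

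Among the 8 largest differences downward, POX_d04924 and POX_b02774 had the smallest standard errors, 0.10 each. POX_d04924 stood at 31.5 and 32.4 FPKM in TE4-10 and at 17.4, 15.6 and 18.1 FPKM in GXUR001 (-0.87). POX_b02774 stood at 45.2 and 41.6 FPKM in TE4-10 and at 25.6, 23.1 and 22.2 FPKM in GXUR001 (-0.85). In these genes the gap between the strains was several times the spread within either of them. POX_d05672 was lower at a lower level, with 8.93 and 7.77 FPKM in TE4-10 and 4.17, 3.74 and 4.49 FPKM in GXUR001 (-0.86 ± 0.15, SE). POX_c04398 stood at 38.6 and 30.8 FPKM in TE4-10 and at 23.7, 19.8 and 18.1 FPKM in GXUR001 (-0.73 ± 0.16, SE). POX_b02140 was even across GXUR001, at 36.6, 36.5 and 36.5 FPKM, but stood at 71.3 and 47.7 FPKM in TE4-10. The size of its difference (-0.66 ± 0.18, SE) therefore depended on which TE4-10 library was used, and it was not called (adjusted p by limma 0.0581).

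The members nearest to the limma threshold show how little separated called from uncalled members. Just inside it were POX_c03965 (adjusted p by limma 0.0472), POX_c04297 (0.0448) and POX_a00129 (0.0410). Just outside it were POX_c03899 (0.0516), POX_b02077 (0.0528) and POX_c03927 (0.0531). POX_c03965 stood at 5.81 and 5.86 FPKM in TE4-10 and at 3.43, 3.17 and 3.64 FPKM in GXUR001 (-0.63 ± 0.16, SE). POX_c03899 stood at 23.7 and 20.4 FPKM in TE4-10 and at 16.5, 16.5 and 14.9 FPKM in GXUR001 (-0.44 ± 0.11, SE), and POX_b02077 at 44.5 and 45.4 FPKM against 37.0, 35.7 and 34.7 FPKM (-0.32 ± 0.08, SE). After rescaling all 6 genes had separate strains, whichever side of the threshold they fell on, as had every member but POX_a01721. Over all genes tested, 26.5% were separate as lower and 26.7% as higher. As deposited, the values of POX_c04297 overlapped.

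The remaining 18 members had mean levels of 3.57 to 38.8 FPKM. Of these, 14 were lower and 4 higher in GXUR001, with log2 fold changes of -0.59 to 0.53. Limma put 4 under the threshold (22.2%, beside 17.8% of all genes tested), all lower. The largest differences had been taken out of this group by the choice of named members, so nothing is read from this count. The 18 include POX_a01721, the only member whose strains overlapped after rescaling, at 19.5 and 12.3 FPKM in TE4-10 and 13.3, 12.9 and 11.3 FPKM in GXUR001. Its log2 fold change of -0.29 became 0.02 without TE4-10 replicate 1.

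The TE4-10 libraries were compared with GXUR001 in turn, since TE4-10 replicate 3 lay closer to GXUR001 over all rows. The direction held in 40 of the 41 members whichever TE4-10 library was used. The same count over all genes tested was not made. Overlap of the strains after rescaling, found in 4515 of the 9636 genes tested and in 1 member, is another measure. It cannot stand in for that count, since overlapping genes can keep their direction. Against replicate 1 alone, 28 members were lower with a median log2 fold change of -0.38, and against replicate 3 alone 27 were lower with a median of -0.37. The difference was smaller against replicate 3 in 26 of 41 members. At or above 1 in absolute log2 fold change were 6 members against replicate 1 and 2 members, POX_a00794 and POX_c04728, against replicate 3. POX_d05543 had 1.19 against replicate 1 and 0.33 against replicate 3, and POX_c03973 had -1.21 and -0.51. By contrast POX_c04002 had 0.65 and 0.74, and POX_d04924 had -0.85 and -0.89. The median gap between the TE4-10 libraries was 0.12 on the log2 scale over the members and 0.22 over all genes tested. The members were chosen by this contrast, which favours genes with a steady direction and close replicates. Nothing is therefore read from the 40 of 41 or from the smaller gap.

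**Figure D3:**
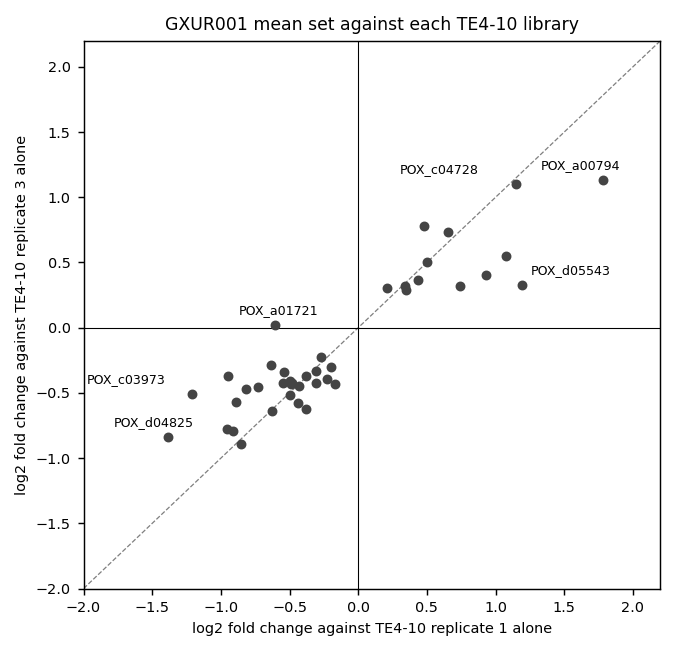
Log2 fold change of the GXUR001 mean over TE4-10 replicate 1 alone (horizontal) and over TE4-10 replicate 3 alone (vertical) for the 41 Zn2Cys6 genes, with the line of equal values dashed. POX_c04728 lies near the line at 1.15 and 1.10, POX_d05543 lies far from it at 1.19 and 0.33, and only POX_a01721 changes sign.

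Calls by limma depended on single libraries. The 15 calls became 5 without TE4-10 replicate 1, 17 without TE4-10 replicate 3, and 4 without GXUR001 replicate 1 or without GXUR001 replicate 3. The calls over all genes went from 1718 to 1083, 1836, 539 and 549 in these fits. Without GXUR001 replicate 2 limma called 0 members, although 8 higher and 16 lower ones had an unadjusted p under 0.05, and 17 of all genes were called. The median log2 fold change of the members stayed between -0.39 and -0.35 in these fits.

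Genes next to the members were read from the gene order of a reference annotation (assembly ASM172317v3), in which all 41 members were found and none overlapped its neighbour. Zn2Cys6 genes outside the list at hand were not located. Among the 41 members, none lay next to another. The closest were POX_d05543 and POX_d05547, with 3 genes between them, and both were higher in GXUR001. Neighbouring members within 15 genes of each other formed 6 pairs, of which 5 had the same direction. POX_c03927, which was higher, and POX_c03940, which was lower (-0.50), with 12 genes between them, were the exception. As 28 of the 41 members were lower, pairs of the same direction are common among them, and nothing is read from these 6 pairs.

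The genes beside some of the higher members differed by more than the members themselves. POX_c03926 and POX_c03928, on either side of POX_c03927, stood at 21.0 and 27.9 FPKM and at 19.7 and 31.1 FPKM in TE4-10. In GXUR001 they stood at 138, 120 and 98.6 FPKM and at 117, 101 and 76.6 FPKM, log2 fold changes of 2.23 ± 0.19 and 1.92 ± 0.25 (SE). Both neighbours were far above TE4-10 in every GXUR001 library. POX_c04727, beside POX_c04728, stood at 106 and 100 FPKM in TE4-10 and at 506, 406 and 250 FPKM in GXUR001 (1.84 ± 0.30, SE). POX_d05546, beside POX_d05547, stood at 168 and 256 FPKM in TE4-10 and at 548, 585 and 595 FPKM in GXUR001 (1.47 ± 0.19, SE). POX_c04001, beside POX_c04002, went from 35.5 and 42.8 FPKM to 89.1, 85.1 and 109 FPKM (1.25 ± 0.15, SE). The list at hand enters all 5 of these neighbours as hypothetical proteins. On the other side of POX_c04728, POX_d05547 and POX_c04002 the next gene did not go with the member, with log2 fold changes of -0.42, -0.57 and 0.16. POX_b03145 had neighbours at 0.86 ± 0.31 and 1.11 ± 0.33 (SE) on its sides, neither under the limma threshold.

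**Figure D4:**
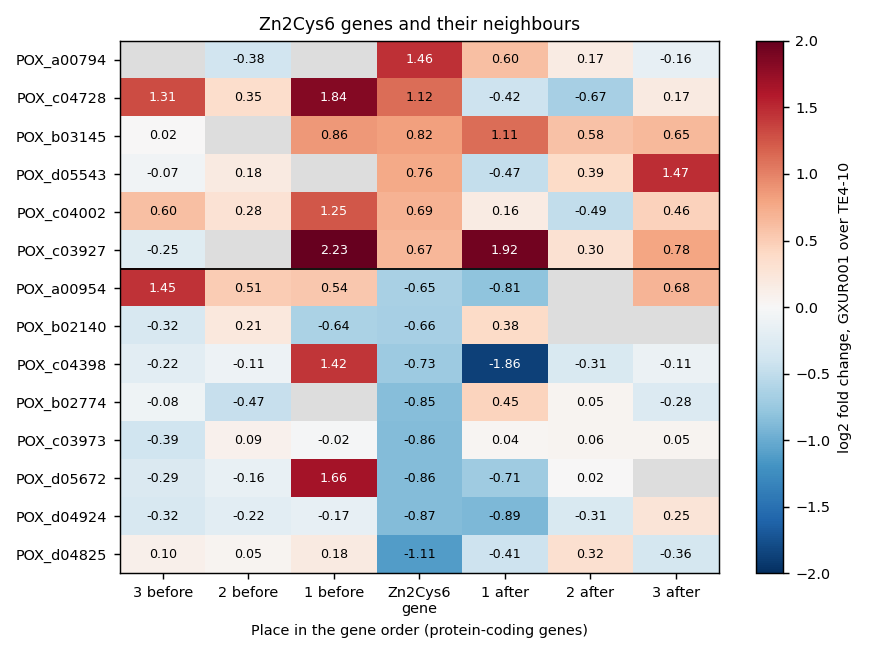
Log2 fold change (GXUR001 over TE4-10) of the 6 Zn2Cys6 genes with the largest increase (above the line) and the 8 with the largest decrease (below it), with 3 protein-coding genes before and after each. Grey cells are genes that were not tested. POX_c03927 lies between neighbours at 2.23 and 1.92, and POX_d05672 (-0.86) lies beside a gene at 1.66.

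Beside the lower members the picture was mixed. POX_d05672 lies next to POX_d05671, the cellobiohydrolase II gene, whose enzyme releases cellobiose from the ends of cellulose chains. POX_d05671 stood at 4026 and 2111 FPKM in TE4-10 and at 11040, 9783 and 7303 FPKM in GXUR001, so it was higher (1.66 ± 0.33, SE) where POX_d05672 was lower. POX_c04399, beside POX_c04398, went with it and by more, from 117 and 140 FPKM to 29.9, 33.5 and 40.6 FPKM (-1.86 ± 0.16, SE). POX_a00954 had a lower gene on one side, POX_a00955, entered as a putative casein kinase II beta subunit (-0.81 ± 0.11, SE), and a higher one on the other, POX_a00953 (0.54 ± 0.12, SE). Casein kinase II is a protein kinase with many substrates, and its beta subunit is regulatory. The neighbours of POX_c03973 were at -0.02 and 0.04. The gene itself, of very low level, was at -0.86 ± 0.35 (SE) and was not called (adjusted p by limma 0.147).

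Over all immediate neighbours, 24 tested genes lay beside the higher members, with a median log2 fold change of 0.27. Limma put 8 of them (33.3%) as higher and 2 (8.33%) as lower. Beside the lower members lay 53 tested genes, 4 (7.55%) put as higher and 7 (13.2%) as lower, with a median of -0.15. Over all genes tested, 9.74% were put as higher and 8.08% as lower. Of these neighbours, 15 of the 24 and 20 of the 53 are themselves in the study's list of differentially expressed genes. The list at hand holds 1998 genes, beside 6083 annotated genes of POX_a to POX_d, tested or not. Neighbours that are not in the study's list had medians of 0.16 over 9 genes and 0.03 over 33 genes. With 3 genes on each side the medians were 0.14 over 68 genes and -0.10 over 148 genes. Among those not in the study's list they were 0.016 over 31 genes and -0.001 over 89 genes. The study's list holds genes that differ in this contrast, so leaving them out tends to shrink a median by that choice alone. Nothing is therefore read from the medians without listed genes. All values of the neighbours are descriptions of the same contrast, and no test of the difference was made.

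The other transcription factors of the list were set beside the members. Of 16 C2H2 zinc finger genes, 10 were lower, limma put 3 as lower and 3 as higher, and the median log2 fold change was -0.36. Of 15 winged helix genes tested, 14 were lower with a median of -0.41, but limma put 1 as lower and 0 as higher (7 lower and 1 higher at an unadjusted p under 0.05). Of 32 genes of other classes, 22 were lower, 8 were put as lower and 3 as higher, and the median was -0.42. In this order, limma called 37.5%, 6.67% and 34.4% of the 3 classes, beside 36.6% of the members and 17.8% of all genes tested. Lower were 62.5%, 93.3% and 68.8%, beside 68.3% of the members and 49.9% of all genes tested. The Zn2Cys6 median of -0.37 lies within the range of these classes. These genes come from the same list, so their medians carry the same choice, and the difference between classes was not tested.

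**Figure D5:**
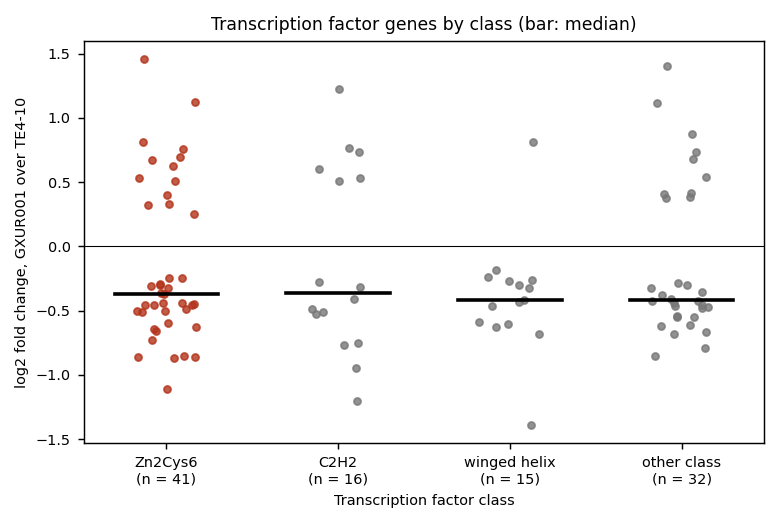
Log2 fold change (GXUR001 over TE4-10) of each transcription factor gene of the list at hand, by class, with the median as a bar. The Zn2Cys6 genes (41, red) have a median of -0.37, beside -0.36, -0.41 and -0.42 in the C2H2 (16), winged helix (15) and other (32) classes, and every class has a gap around 0.

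Within the Zn2Cys6 genes, the split between directions was similar in POX_a (5 lower, 3 higher), POX_c (6 and 4) and POX_d (7 and 4), and was 10 lower and 2 higher in POX_b. The members of POX_b also had the highest median level, 35.2 FPKM against 16.2, 22.3 and 11.4 FPKM in POX_a, POX_c and POX_d. Differences between these groups were not tested.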

How the data were processed

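RNA-seq of mycelium was available as 1 table per library, for GXUR001 (n = 3) and TE4-10 (n = 2). The authors deposited FPKM values. The submitters' processing notes name HISAT2 and bcl2fastq, and the methods give the *P. oxalicum* HP7-1 genome as reference. The counting tool, annotation version and use of strand are not given in the sources used here, and reads shared by near-identical genes could have been split. No count test was used, because FPKM is not a count.

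Members and lists were chosen with earlier results of these data known. The study's list was used for identifiers, classes and functions only. Its columns of fold changes and p-values of the same comparison were not used, and no test for differentially expressed genes is named in the methods. The list at hand is cut after POX_d. *PoxCxrC* is not reported, since the sources used here do not pair it with an identifier.

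Libraries were rescaled by the median ratio to their geometric mean. On log2(FPKM + 1), genes whose mean FPKM reached 1 were tested with limma 3.58.1 in R 4.3.3 (lmFit, eBayes with a trend, 3 residual and 2.45 prior degrees of freedom), with Benjamini-Hochberg adjustment over 9636 genes and calls at an adjusted p under 0.05. All 41 members passed the filter. The script was tested on simulated data. Values in each library are given for the 10 members highest in level, the 6 largest increases, the 8 largest decreases, members with a further entry and the 3 members on each side of the threshold, 23 in all. Any other member was named with its values known. Alternatives were unscaled FPKM as deposited, scaling to the upper quartile, a filter at 10 FPKM or none, a pseudocount of 0.1, no trend, an unadjusted p, a replicate block, leaving out each library and, chosen after seeing the data, scaling to actin. A count of genes with the Zn2Cys6 motif in their protein was not made, since no protein sequences were used here. Plots were made in Python 3.11.15 (matplotlib 3.10.9).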

Additional observations from a re-analysis of the deposited data

How the results depend on the processing

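The number of Zn2Cys6 genes called by limma (15 of 41) depended on the processing. It was 27 with FPKM as deposited, 6 with scaling to actin (4 higher and 2 lower, chosen after seeing the data), 35 with an unadjusted p, and 0 to 17 when libraries were left out in turn, where a strain left with 1 library was assumed to vary like the other. Over all genes these fits called 2661, 785, 3436 and 17 to 1836, against 1718. For the other transcription factor classes (18 of 63 called) the counts were 45, 8, 52 and 0 to 20. With the replicate number as a block, limma called 0 members and 0 genes of the other classes, and 0 of all genes. At an unadjusted p under 0.05 the block gave 8 higher and 14 lower members and 2477 of all genes. The labels do not say whether libraries of the same number belong together. Deviations from the strain means correlated at -0.0068 for replicates 1 and 0.037 for replicates 3. With 2 libraries of TE4-10 the deviations mirror each other, so these values cannot decide the question. The median log2 fold change of the members was -0.63 with FPKM as deposited and -0.43 to -0.31 under the other alternatives, and 26 to 29 members were lower, or 20 of 31 with the filter at 10 FPKM. Of 293 log2 fold changes of the 23 genes given in full, 210 kept their side of the threshold, 58 no longer passed it, 25 newly passed it, and 0 changed sign. The 23 genes were picked mostly for level or size of difference. Among the other members, POX_a00812 changed sign with FPKM as deposited (-0.01) and POX_a01721 without TE4-10 replicate 1 (0.02). The causes of these shifts were not tested. The motif count and its alternatives were not run.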
